A study of Caenorhabditis elegans with 12 samples.

Results

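The genes described here carry out DNA replication or drive the cell cycle through cyclin-dependent kinases in the nematode Caenorhabditis elegans. A list of 42 such genes was matched by name to the deposited probe sets, which the authors had filtered by detection. The brightest probe set of each gene was used. Of these 42 genes, 38 were measured, out of 10334 genes measured in all. The other 4, the licensing factor cdt-1, the kinase cdk-2 and the cyclins cye-1 and cyh-1, are not analysed here. No deposited probe set names any of them alone. The 38 comprised 11 genes of origin licensing, 13 of DNA synthesis, 2 kinases and 4 cyclins of the cell cycle, 2 kinase inhibitors and 6 kinases linked mainly to transcription.

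The study compared worms carrying the allele ife-1(bn127) with wild-type N2 worms. IFE-1 belongs to the eIF4E family, whose members bind the mRNA cap to start translation, and is a germline form. All worms were whole, mixed-stage cultures, fed Escherichia coli OP50 and egg yolk and kept for a final 3 days at 20 °C. Lysates were separated on sucrose gradients of 10 to 45%, and RNA that sedimented past 80S (polysomal, P) or short of it (nonpolysomal, NP) was measured on Affymetrix arrays. The 12 arrays form 4 groups of 3, namely P and NP of ife-1(bn127) and P and NP of wild type, from 3 separately harvested cultures per genotype that were paired in growth sets. Whole animals hold every tissue at once, so fewer cells of a type and less RNA per cell cannot be told apart.

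An origin of replication is licensed when the origin recognition complex (ORC), with CDC-6 and CDT-1, loads the MCM helicase onto DNA. Cyclin-dependent kinases (CDKs) then start synthesis, in which primase, polymerases, the sliding clamp PCNA and its loader RFC copy the strands while replication protein A covers single-stranded DNA. In the worm, dividing cells are found in the germline, in embryos and in larval lineages, and inhibitors of the CKI family hold cells in G1.

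The deposited probe sets had already been filtered by detection, which favours calls of present among them. Array medians of the deposited signals lay between 367.3 and 428.6, and 37 of the 38 members were called present on all 12 arrays. The exception was cdk-8, called present on 2 P and 3 NP arrays of ife-1(bn127) and on 1 P and 1 NP array of wild type. The check of the mutated gene gave ife-1 signals of 62.3 to 177.7 on the 6 ife-1(bn127) arrays, against 3567 to 5997 on the 6 wild-type arrays. The wild-type culture of set 2 stood apart from the other two: its log2(P/NP) correlated at 0.773 and 0.755 with theirs across 13333 probe sets, against 0.858 between those cultures. It also stood apart for the genes described here. The median polysomal share, P/(P + NP), of the 38 members was 44.6, 44.2 and 43.9% in the 3 ife-1(bn127) cultures, and 40.7, 49.3 and 38.7% in the 3 wild-type cultures. In wild type, 33 of 38 members had their highest share in that culture (86.8%), which held for 39.1% of all genes. The counts, medians and largest changes that rest on wild-type shares are therefore also given without it, from arrays normalized again. Precision throughout is limited by the number of arrays.

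Combined abundance, log2(P + NP), was compared first. Most replication and CDK mRNAs were more abundant in ife-1(bn127): 24 of 38 rose, and 1 fell, in limma at a Benjamini-Hochberg adjusted p under 0.05 over all 13333 probe sets. Over all probe sets, 21.0% were called higher and 18.5% lower. The median change of the members was 0.65 on the log2 scale, against 0.06 over all probe sets, and 36 of 38 changes were above 0. The 2 below 0 were the inhibitor cki-1, which was called, and the G1 cyclin cyd-1, which was not (-0.22 ± 0.19, SE, limma adjusted p = 0.381). In 30 members every ife-1(bn127) culture lay above every wild-type culture and in 1 below, while 29.5% of all probe sets lay above in this way and 24.1% below. Signals of the 38 members summed to between 164149 and 188997 in the ife-1(bn127) cultures, against 110386 to 114862 in the wild-type cultures.

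**Figure D1:**
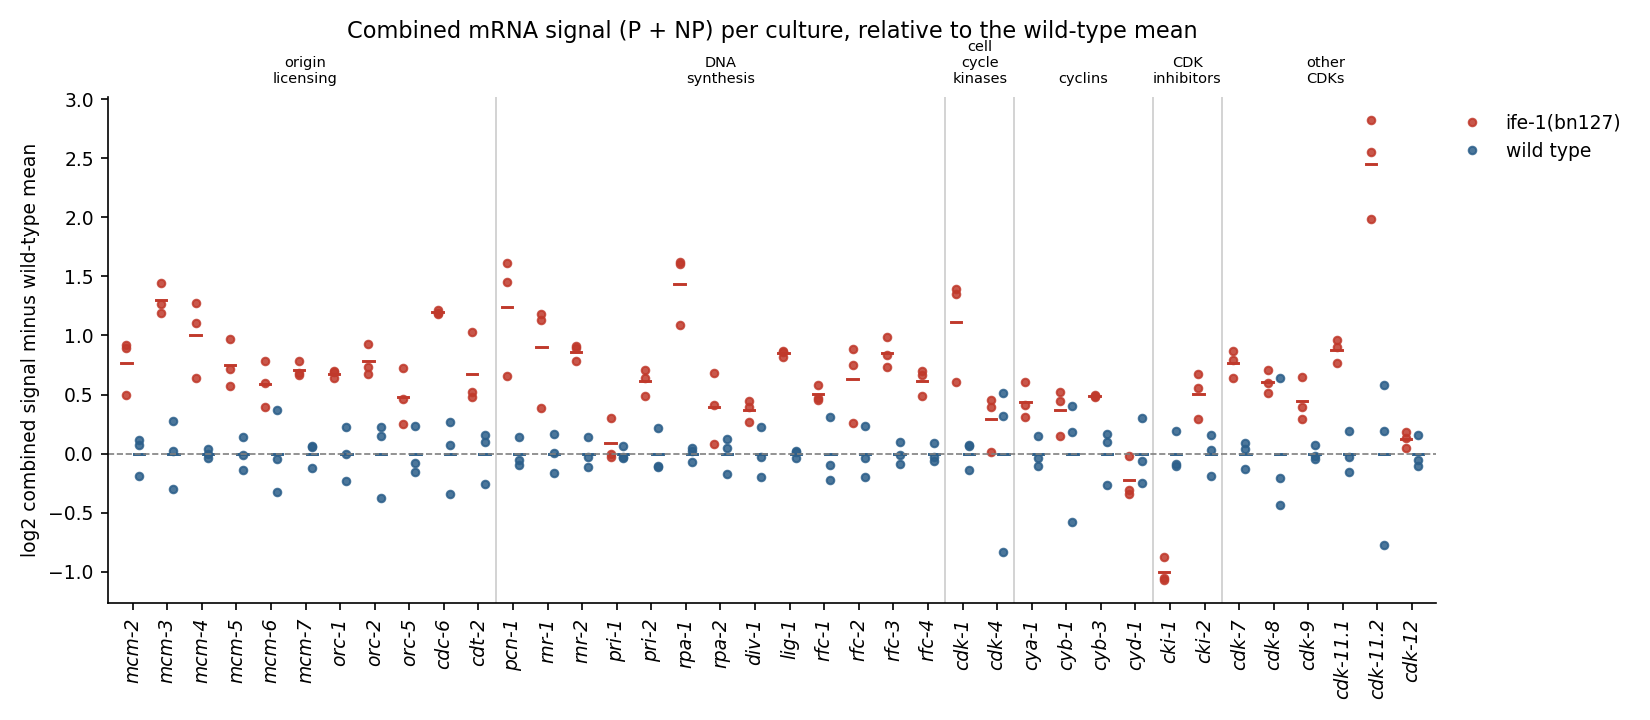
Combined signal of the 38 measured genes in each culture (points, 3 per genotype, short bars are means), as log2 difference from the gene's wild-type mean on the vertical axis, with genes grouped by role along the horizontal axis and ife-1(bn127) left of wild type. In 30 genes the 3 ife-1(bn127) cultures lie above all 3 wild-type cultures, and in cki-1 they lie below.

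Among the licensing genes, 9 of 11 rose and the groups were apart in 11 of 11. MCM subunits form the ring-shaped helicase that opens the double strand. The mcm-3 signal was 4145, 3930 and 4682 in the ife-1(bn127) cultures, against 2087, 1749 and 1399 in the wild-type cultures. The lowest mutant culture was thus above the highest wild-type culture, and the change was 1.3 ± 0.19 on the log2 scale (2.46-fold, limma adjusted p = 0.00245). A second mcm-3 probe set gave a change of 1.11 (limma adjusted p = 0.0104). Both carry suffixes that mark probes able to match other transcripts. The same limit holds for many members: the brightest probe set was an _s_at one in 17 and an _x_at one in 3. In the other 18 it carried the plain suffix _at. Those of mcm-4, cdc-6, cdt-2, pcn-1, rnr-1, rnr-2 and cki-2 were _s_at probe sets, so their signals may include other transcripts.

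For mcm-4 the signal was 6708, 4334 and 5977 in ife-1(bn127) and 2857, 2710 and 2771 in wild type, a change of 1.01 ± 0.19 (limma adjusted p = 0.0064). The wild-type cultures were close together here, and the spread lay in the mutant, whose set 2 culture was lowest. The mcm-2, mcm-5 and mcm-7 mRNAs rose by 0.77, 0.75 and 0.71 on the log2 scale. The change of mcm-6 was 0.59 ± 0.21 and missed the threshold (limma adjusted p = 0.0579), although its groups were apart.

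CDC-6 is the ATPase that joins ORC to load the helicase. Its mRNA had signals of 2040, 2049 and 2092 in the ife-1(bn127) cultures, against 948, 1082 and 710 in the wild-type cultures. The mutant cultures differed from each other by far less than from wild type, and the change was 1.2 ± 0.19 (2.29-fold, limma adjusted p = 0.00316). Of the ORC subunits, which bind the origin, orc-1 rose by 0.68 and orc-2 by 0.78, while orc-5 changed by 0.48 (limma adjusted p = 0.073). The mRNA of CDT-2, the substrate receptor with which the CUL-4 ubiquitin ligase removes CDT-1, rose by 0.68 ± 0.21 (limma adjusted p = 0.0336).

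Of the DNA synthesis genes, 9 of 13 rose and the groups were apart in 11. Replication protein A showed the largest change and also 1 of the smaller ones. The signal of rpa-1, its large subunit, was 1908, 1317 and 1880 in ife-1(bn127), against 629, 591 and 639 in wild type (1.44 ± 0.19, 2.71-fold, limma adjusted p = 0.00176). That of rpa-2 was 5934, 4735 and 7167 in ife-1(bn127) and 4619, 3962 and 4856 in wild type (0.39 ± 0.19, limma adjusted p = 0.14). The rpa-1 groups were far apart, whereas the rpa-2 groups overlapped.

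The sliding clamp PCNA is encoded by pcn-1. Its signal was 9822, 5066 and 8789 in ife-1(bn127) and 3007, 3548 and 3098 in wild type (1.24 ± 0.26, 2.37-fold, limma adjusted p = 0.00866). Ribonucleotide reductase makes deoxynucleotides, and rnr-1 encodes its large subunit, with signals of 6325, 3658 and 6115 in ife-1(bn127) against 2488, 2803 and 3128 in wild type. For both genes, the set 2 culture was the lowest of the 3 mutant cultures and still lay above every wild-type culture. The rnr-1 change was 0.90 ± 0.24 (limma adjusted p = 0.0205), and that of the small subunit rnr-2 was 0.86 ± 0.15 (limma adjusted p = 0.00431).

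Of the other synthesis genes, lig-1, a DNA ligase that seals nicks, rose by 0.85, and 3 of the 4 RFC clamp loader subunits rose, namely rfc-3 by 0.85, rfc-2 by 0.63 and rfc-4 by 0.62. The change of rfc-1 was 0.50 (limma adjusted p = 0.0564). A dimmer rfc-2 probe set, also of the kind that may match other transcripts, changed by only 0.13 (limma adjusted p = 0.611). Primase lays the RNA primer, and its 2 subunits differed in their calls: pri-2 rose by 0.61 (limma adjusted p = 0.0204), whereas pri-1 changed by 0.09 (limma adjusted p = 0.664) and div-1, the B subunit of the polymerase alpha complex, by 0.37 (limma adjusted p = 0.108).

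CDK-1 drives entry into mitosis. Its mRNA gave signals of 7321, 4230 and 7084 in ife-1(bn127), against 2531, 2904 and 2930 in wild type, and rose by 1.12 ± 0.23 (2.17-fold, limma adjusted p = 0.00896). The G1 kinase gene cdk-4 varied widely between cultures, with signals of 1340, 1290 and 989 in ife-1(bn127) and 1224, 1396 and 548 in wild type, and its change of 0.29 ± 0.35 was not called (limma adjusted p = 0.531). Among the cyclins, 1 of 4 was called: cyb-3, a B-type cyclin of mitosis, rose by 0.49 ± 0.17 (limma adjusted p = 0.0485). The changes of cya-1 (cyclin A) and cyb-1 (cyclin B) were 0.44 and 0.37 (limma adjusted p = 0.0573 and 0.293). The cyb-1 value came from an _x_at probe set, which may match other transcripts. A second cyb-1 probe set of nearly the same brightness, without such a suffix, was called, with a change of 0.66 (limma adjusted p = 0.0375). A dimmer one was not called (0.39, limma adjusted p = 0.341).

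The 2 CDK inhibitors moved in opposite directions. CKI-1 is the p27-type inhibitor that holds worm cells in G1, and its signal was 1640, 1667 and 1879 in the ife-1(bn127) cultures, against 3250, 3933 and 3207 in the wild-type cultures. It was the only member that fell, by 1.00 ± 0.16 on the log2 scale (limma adjusted p = 0.00325), and every mutant culture was below every wild-type culture. The signal of cki-2, the second inhibitor, was 2505, 2082 and 2710 in ife-1(bn127) and 1736, 1492 and 1905 in wild type, also without overlap (0.51 ± 0.17, limma adjusted p = 0.0497).

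The genes cki-1 and cki-2 are neighbours on chromosome II, with 0 protein-coding genes between them in RefSeq's WBcel235 annotation. The log2 change of cki-1 differed from that of cki-2 by -1.51. This pair was chosen after its values were seen, and the difference was not tested. A dimmer cki-1 probe set, called present on 6 of 12 arrays, changed in the same direction but was not called (-0.48, limma adjusted p = 0.126). The mean change of both probe sets was -0.74, and the mean of their adjusted p values was above the threshold, which is not a test. The gene's call was lost under scaling on bacterial control probe sets (-0.60).

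Among the kinases linked mainly to transcription, 3 of 6 rose. The cdk-11.2 signal, from a relative of human CDK11, was 853, 1524 and 1258 in the ife-1(bn127) cultures, against 246, 321 and 126 in the wild-type cultures. This change of 2.46 ± 0.36 (5.48-fold, limma adjusted p = 0.00274) was the largest of the 38. The gene's second probe set, called present on 8 of 12 arrays, gave 2.06 (limma adjusted p = 0.00199). The deposited wild-type signals of cdk-11.2 were low, at 54.5 to 178.6, although called present. Those of the mutated gene ife-1 in ife-1(bn127) were 62.3 to 177.7, so the size of the cdk-11.2 fold is uncertain. The paralog cdk-11.1 had signals of 2023, 1762 and 1937 in ife-1(bn127) and 930, 1016 and 1183 in wild type (0.88 ± 0.16, limma adjusted p = 0.00529). The change of cdk-11.2 exceeded that of cdk-11.1 by 1.58, in a pair also chosen after its values were seen and not tested.

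The third gene that rose in this class was cdk-7, whose product activates other CDKs and belongs to the general transcription factor TFIIH. It rose by 0.77 ± 0.15 (limma adjusted p = 0.00724), and its 2 further probe sets were called in the same direction, at 1.11 and 0.67. All of its probe sets carry suffixes that mark probes able to match other transcripts. The changes of cdk-8, a kinase of the Mediator complex, and of cdk-9, the kinase of the elongation factor P-TEFb, were 0.61 and 0.45 (limma adjusted p = 0.113 and 0.0531). That of cdk-12, which phosphorylates the tail of RNA polymerase II, was 0.12 ± 0.15 (limma adjusted p = 0.538).

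The calls in combined abundance depended on which cultures were included, although no called member changed sign in any alternative fit. Without set 1, 2 members were called higher and 0 lower, against 0.983% of all probe sets called higher in that fit. Without set 3 it was 8 members (4.43% of all probe sets), without the ife-1(bn127) culture of set 1 it was 13 (8.77%), and without that of set 3 it was 14 (10.2%). The wild-type culture of set 2 mattered less, with 21 members higher and 1 lower in its absence and a median change of 0.58. In that fit 22.5% of all probe sets were higher and 22.2% lower. The mcm-3 call was made in 18 of 18 alternatives, that of cdk-11.2 in 17 of 17, that of cyb-3 in 6 of 18 and that of cdt-2 in 8 of 18. In these counts, 1 alternative is the median over all probe sets of a gene, which is not a new fit. With the set number as a block, 21 members were called higher, against 18.7% of all probe sets. The limma adjusted p was then 0.0717 for cdt-2, 0.0602 for rfc-2 and 0.0737 for cyb-3. All 16 further probe sets of these genes changed in the same direction as the brightest one, and 9 of the 16 were called higher.

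Other genes of the same pathways, taken from 2 lists, were compared in the same fit, with 21.0% of all probe sets called higher and 18.5% lower. Of 29 further replication genes 20 rose and 0 fell (29 of 29 above 0, median change 0.70; 21 and 0 had an unadjusted limma p under 0.05). The largest changes among them were 1.31 for pola-1, the catalytic subunit of polymerase alpha, 1.3 for tim-1, a relative of the fork protection factor Timeless, and 1.18 for pole-1, the catalytic subunit of polymerase epsilon (limma adjusted p = 0.00153, 0.00123 and 0.00422). Of 34 further cell cycle genes 18 rose and 0 fell (median 0.61, with 19 and 1 at an unadjusted limma p under 0.05). They were led by the B-type cyclin genes cyb-2.1 (1.16) and cyb-2.2 (1.08) and by dpl-1 (1.13), the DP partner of E2F. Both cyclin genes were read with _x_at probe sets, which may match other transcripts, so their rises may not be separate.

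Markers of several cell types moved with these genes. Of 12 germline markers 10 were called higher in ife-1(bn127) and 0 lower, and of 11 markers of oocytes and early embryos 11 were called higher. Their signals summed to 65268 to 74144 (germline) and 140755 to 170689 (oocyte and embryo) in the ife-1(bn127) cultures, against 38666 to 43666 and 77995 to 89712 in the wild-type cultures. The median changes of these lists, 0.98 and 1.04, lay above the 0.65 of the replication and CDK genes. None of the 57 measured marker genes had a signal of 0 on any array.

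Markers of somatic tissues were called lower in part: 4 of 6 for muscle, 4 of 5 for neurons and 2 of 6 for hypodermis and cuticle, with 0 higher in each. Of 8 intestinal markers 3 were higher and 2 lower. Of 9 sperm markers 0 were called, with 2 lower and 0 higher at an unadjusted limma p under 0.05. Their signals summed to 25147 to 30817 in the ife-1(bn127) cultures and to 94491, 22127 and 88357 in the wild-type cultures of sets 1, 2 and 3, so the wild-type culture that stood apart in polysomal shares was also the lowest in sperm markers. The part that cell composition has in the changes of replication and CDK genes was not tested.

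**Figure D2:**
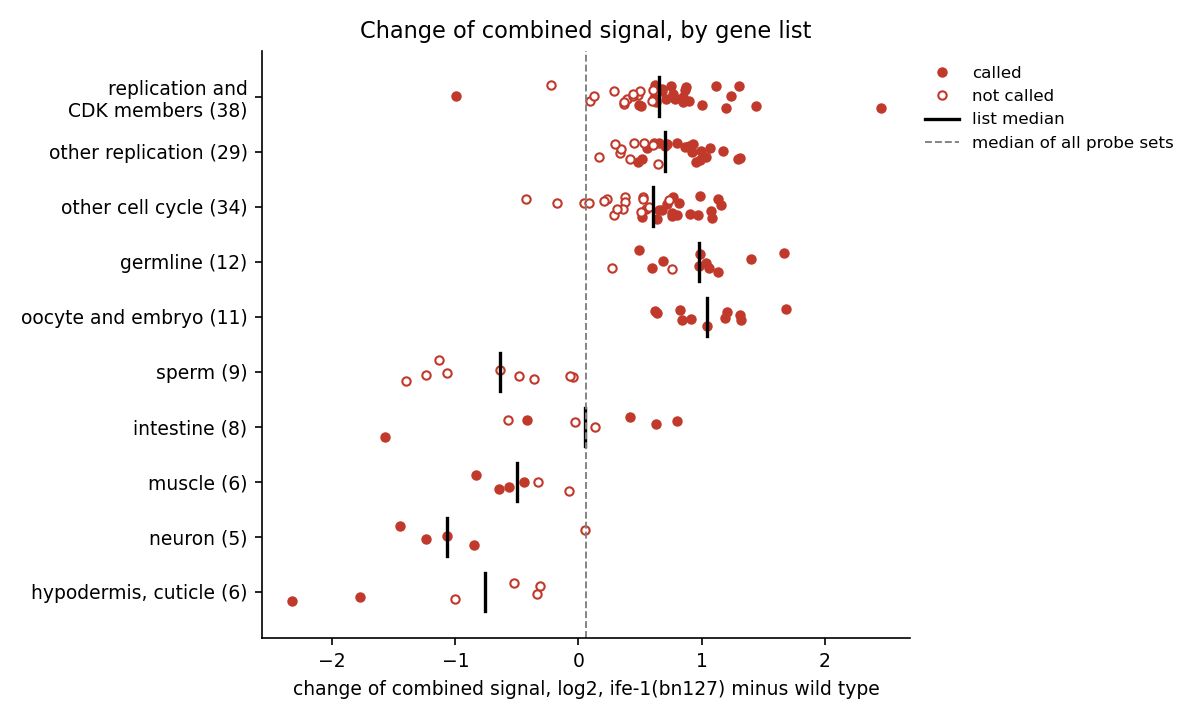
Change of combined signal (horizontal axis, log2, ife-1(bn127) minus wild type) for each gene of 10 lists (rows, number of measured genes in brackets). Filled points passed the threshold in limma, open points did not, black bars are list medians and the dashed line is the median of all probe sets. The replication and CDK genes have a median of 0.65, the germline and oocyte markers of 0.98 and 1.04, and the sperm, muscle, neuron and hypodermis markers lie mostly below 0.

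The second comparison asked whether the mutation changed the polysomal association of these mRNAs, measured as log2(P/NP) in a culture. No member was called: 0 of 38 were higher and 0 lower in limma, and 0 and 0 in every alternative fit. At an unadjusted limma p under 0.05, dropping wild-type culture 2 gave 4 members higher and 0 lower. The matching count over all probe sets in that fit was not computed, so the 4 cannot be called particular to these genes. The main fit gave 0 and 0 at that unadjusted threshold. Over all 13333 probe sets in the main fit, 0.0300% were called higher and 0.0975% lower. Of these 13333, 1381 were higher and 1349 lower at an unadjusted limma p under 0.05. The changes of the members ranged from -0.64 for cdk-11.2 to 0.60 for cdk-4, with 20 above and 18 below 0 and a median of 0.07, against 0.03 over all probe sets. This median has no stable sign: it was -0.03 on the deposited signals and 0.26 when the wild-type culture of set 2 was left out, where 28 changes were above and 10 below 0. The 95% intervals of 33 members lay within 1 log2 unit of 0, and the 5 others reached past it.

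Polysomal shares were apart between the genotypes in 8 members, 4 above and 4 below wild type, while 14.8% of all probe sets lay above and 12.4% below in this way. Against the other 2 wild-type cultures alone, 18 members lay above and 4 below, with 23.9% and 19% of all probe sets. Among positive changes, the 5 smallest unadjusted p values belonged to cki-1, cyb-3 and 3 replication genes. The cki-1 share was 60.2, 52.8 and 60.9% in ife-1(bn127), against 49.8, 47.6 and 51.8% in wild type (0.48 ± 0.21 in log2(P/NP), limma adjusted p = 0.248, 95% interval -0.01 to 0.97). Its groups were apart, but the dimmer cki-1 probe set gave the opposite sign (-0.73, limma adjusted p = 0.469).

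The cdt-2 share was 23.2, 20.2 and 22.6% in ife-1(bn127) and 14.9, 20.3 and 15.2% in wild type (0.50 ± 0.22, limma adjusted p = 0.25). The overlap was between the set 2 cultures of the 2 genotypes. Without the wild-type culture of set 2 the change was 0.70 (limma adjusted p = 0.106). For rnr-2 the share was 37.2, 30.9 and 36.6% in ife-1(bn127) and 27.8, 31.2 and 27.9% in wild type (0.40 ± 0.21, limma adjusted p = 0.321), with the same pattern of overlap.

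The orc-5 share was 27.3, 27.9 and 31.6% in ife-1(bn127), against 23.2, 26.9 and 22.1% in wild type (0.37 ± 0.21, limma adjusted p = 0.348). The cyb-3 share was 46.5, 43.7 and 44.4% in ife-1(bn127) and 38.3, 42.9 and 37.0% in wild type (0.33 ± 0.20, limma adjusted p = 0.381). In both genes every mutant culture lay above every wild-type culture, by less than 1 percentage point at the nearest. A second cyb-3 probe set gave the opposite sign (-0.20, limma adjusted p = 0.724), and so did further probe sets of mcm-3 (0.44) and orc-2 (-0.31), which with cki-1 makes 4 of the 16 further probe sets. Without the set 2 culture of wild type, the changes of cki-1, rnr-2, orc-5 and cyb-3 were 0.42, 0.47, 0.49 and 0.43. The fourth gene apart in this direction was cki-2, with mean shares of 43.9% in ife-1(bn127) and 40.4% in wild type.

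Lower shares in ife-1(bn127) were seen for rpa-2, at 46.3, 51.0 and 38.1% against 53.3, 56.2 and 53.9% in wild type (-0.54 ± 0.24, limma adjusted p = 0.246, 95% interval -1.09 to 0.00). The cdk-1 share was 32.6, 32.5 and 32.4% in ife-1(bn127), against 37.8, 40.8 and 36.8% in wild type (-0.37 ± 0.19, limma adjusted p = 0.296). The mutant cultures were nearly equal for this gene, and its groups were apart although the shift was not called.

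The share of cdk-11.1 was 53.9, 53.8 and 52.7% in ife-1(bn127), against 59.2, 60.3 and 59.0% in wild type (-0.36 ± 0.18, limma adjusted p = 0.304). That of rfc-2 was 52.6, 57.4 and 51.5% in ife-1(bn127), against 58.0, 62.4 and 60.7% in wild type (-0.39 ± 0.20, limma adjusted p = 0.317). These groups did not overlap either. The cdk-11.2 share, 36.0, 37.5 and 48.9% in ife-1(bn127) against 46.9, 45.5 and 62.3% in wild type, did overlap (-0.64 ± 0.33, limma adjusted p = 0.311). Its wild-type shares rest on the low signals given above. With wild-type culture 2 left out, the changes of rpa-2, cdk-1, cdk-11.1, rfc-2 and cdk-11.2 were -0.49, -0.30, -0.34, -0.33 and -0.82. The 6 kinases linked mainly to transcription all had negative changes, none called, but when the set 2 culture of wild type was left out those of cdk-7 and cdk-8 were positive (0.05 and 0.13).

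**Figure D3:**
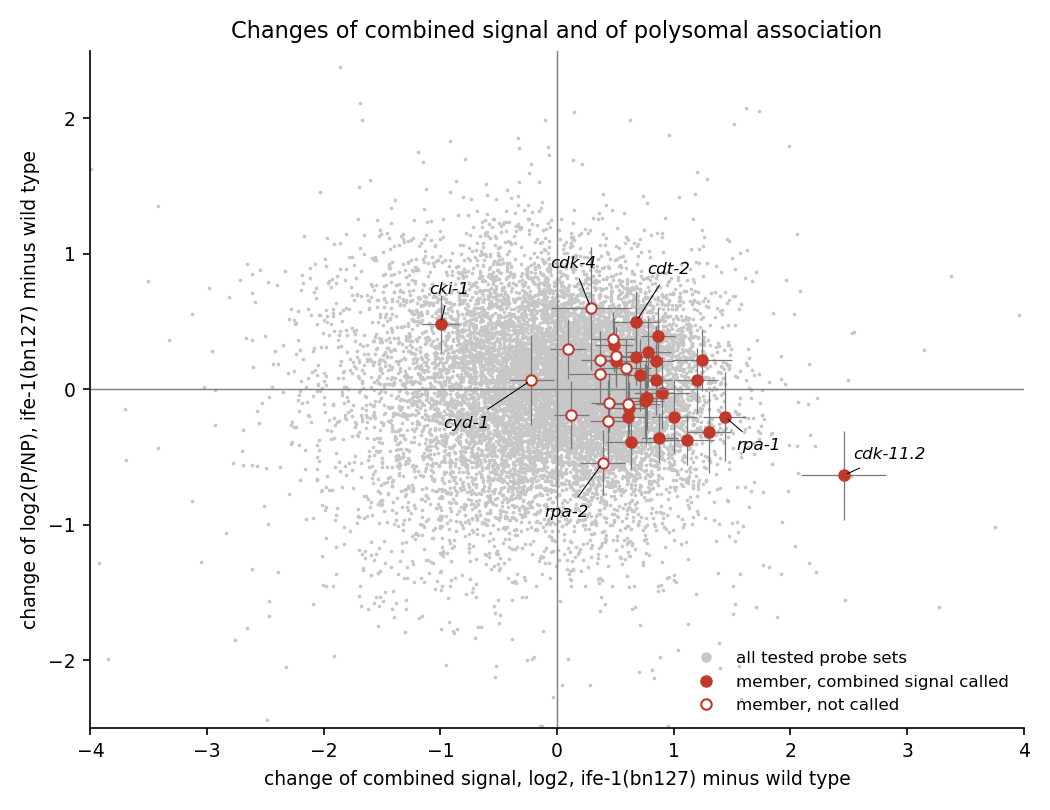
Change of combined signal (horizontal axis) against change of polysomal association (vertical axis), both as log2, ife-1(bn127) minus wild type. Red points are the 38 replication and CDK genes with SE bars, filled where the combined signal was called, and grey points are the 13333 tested probe sets, 23 of which fall outside the axes. The members lie to the right of 0 except cki-1 and cyd-1, and spread to both sides of 0 vertically.

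The third comparison set P against NP within each genotype, which asks how these mRNAs are distributed between the fractions at all. Because the arrays were brought to a common distribution, a share is relative to the typical mRNA and not an absolute amount. More of the replication and CDK mRNAs were called lower in P than higher, in both genotypes. In ife-1(bn127) 13 of 38 members were called lower in P than in NP and 1 higher (26.1% and 22.7% of all probe sets), with a median log2(P/NP) of -0.32, against -0.06 over all probe sets. In wild type 17 were lower and 2 higher (29.3% and 26.5% of all probe sets), with a median of -0.44 against -0.04. With the set 2 culture left out, the wild-type counts were 22 and 2 and the median -0.61. The wild-type count of lower members was 9 without set 1 (18.3% of all probe sets), 10 without set 3 (21.1%) and 11 when only wild-type culture 1 was dropped (22.2%), and under median scaling the ife-1(bn127) count was 22 (31%).

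The members' median lay 0.26 log2 units below that of all probe sets in ife-1(bn127) and 0.40 below it in wild type. Scaling on 9 bacterial control probe sets moved the wild-type median of all probe sets to 0.53 and that of the members to 0.18, so that the members again lay below, by 0.35, although the sign of their own median turned. Under it the wild-type values of mcm-6, cdc-6, cyb-1 and cki-2 also turned sign.

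Across the 38 members, mean shares ranged from 22.03 to 58.0% in ife-1(bn127) and from 16.8 to 60.4% in wild type. Of the members called lower in P, 12 were called in both genotypes, out of 13 in ife-1(bn127) and 17 in wild type. The share of all probe sets called lower in both was not computed, so this overlap cannot be called particular to these genes. Mean shares of the 2 genotypes correlated at r = 0.895 (Pearson) and 0.864 (Spearman) over the 38 genes, which were measured on the same arrays. Without the set 2 culture of wild type these correlations were 0.867 and 0.869, here from the 12 arrays normalized together. The median SD of a member's share was 2.68 percentage points in ife-1(bn127) and 5.28 in wild type. Over the wild-type cultures of sets 1 and 3 alone it was 1.41, also without a new normalization.

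The lowest shares belonged to cdt-2, whose values per culture are given above (log2 P/NP of -1.83 ± 0.16 in ife-1(bn127) and -2.33 ± 0.16 in wild type, limma adjusted p = 0.00015 and 4.95e-05). ORC was split by subunit. The orc-1 share was 25.19, 29.8 and 25.35% in ife-1(bn127) and 23.2, 26.1 and 21.6% in wild type, and orc-5 was similarly low, whereas orc-2 was the highest of the 3 subunits in 6 of 6 cultures (36.0 to 50.2%). Both low subunits were called lower in P in both genotypes, with limma adjusted p between 8.18e-05 and 0.000322.

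The RFC clamp loader was split more widely than ORC. The rfc-2 share was the highest of the 4 subunits in 6 of 6 cultures (51.5 to 62.4%). In wild type rfc-2 was called higher in P (0.61 ± 0.14, limma adjusted p = 0.00693), a call that was lost without set 3. The dimmer rfc-2 probe set was not called there (0.18, limma adjusted p = 0.407), with a mean wild-type share of 53.1%. The rfc-4 share was 23.4, 26.1 and 22.5% in ife-1(bn127) and 24.6, 26.8 and 26.0% in wild type, and that of rfc-3 was 33.8, 31.3 and 29.1% in ife-1(bn127) and 24.0, 36.0 and 25.9% in wild type. Those of rfc-3 and rfc-4 were thus below that of rfc-2 in every culture. Both were called lower in P in both genotypes (limma adjusted p of 0.00159 or less).

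Ribonucleotide reductase was split in the same manner. The rnr-1 share was above the rnr-2 share in 6 of 6 cultures, at 46.2 to 60.6% against 27.8 to 37.2%, and only rnr-2 of the pair was called lower in P (-0.90 ± 0.15 in ife-1(bn127) and -1.297 ± 0.15 in wild type). Of the primase complex, pri-1 had shares of 38.9, 35.5 and 38.6% in ife-1(bn127) and 30.7, 38.6 and 29.8% in wild type. Those of pri-2 were 31.2, 28.5 and 35.2% in ife-1(bn127) and 33.4, 38.3 and 32.5% in wild type. Both primase genes were called lower in P in both genotypes, whereas div-1 was the highest of the 3 in 6 of 6 cultures (43.2 to 51.6%).

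The MCM subunits lay closer together than those of RFC. Their mean shares in ife-1(bn127) ran from 39.1% for mcm-5 to 55.1% for mcm-7, and in wild type from 40.5% for mcm-5 to 59.2% for mcm-3. The dimmer mcm-3 probe set had mean shares of 60.1% in ife-1(bn127) and 52.5% in wild type. It was called higher in P in ife-1(bn127) (0.59, limma adjusted p = 0.0124). The mcm-5 share was the lowest of the 6 in 5 of 6 cultures and was called lower in P in both genotypes (limma adjusted p = 0.0241 in ife-1(bn127) and 0.0362 in wild type). The wild-type values of mcm-3 (60.4, 68.4 and 48.8%) spanned more than the difference between most subunits, so the order of the upper subunits was not resolved.

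Among the kinases, cdk-7 had shares of 30.7, 26.0 and 42.8% in ife-1(bn127) and 26.4, 36.9 and 38.8% in wild type and was called lower in P in both genotypes, as was cdk-1. The cdk-11.1 mRNA was not called in ife-1(bn127) (0.20 ± 0.13, limma adjusted p = 0.225) and was called higher in P in wild type (0.56 ± 0.13, limma adjusted p = 0.00639, lost without set 1 or set 3). The 1 member called higher in P in ife-1(bn127) was cki-1 (0.47 ± 0.15, limma adjusted p = 0.0322, against -0.01 ± 0.15 in wild type, limma adjusted p = 0.939). This call was lost without the ife-1(bn127) culture of set 1 or that of set 3. The dimmer cki-1 probe set was not called, at 0.24 in ife-1(bn127) and 0.97 in wild type (limma adjusted p = 0.631 and 0.0575). For these genes the difference between the genotypes is the association change given above, which was not called.

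**Figure D4:**
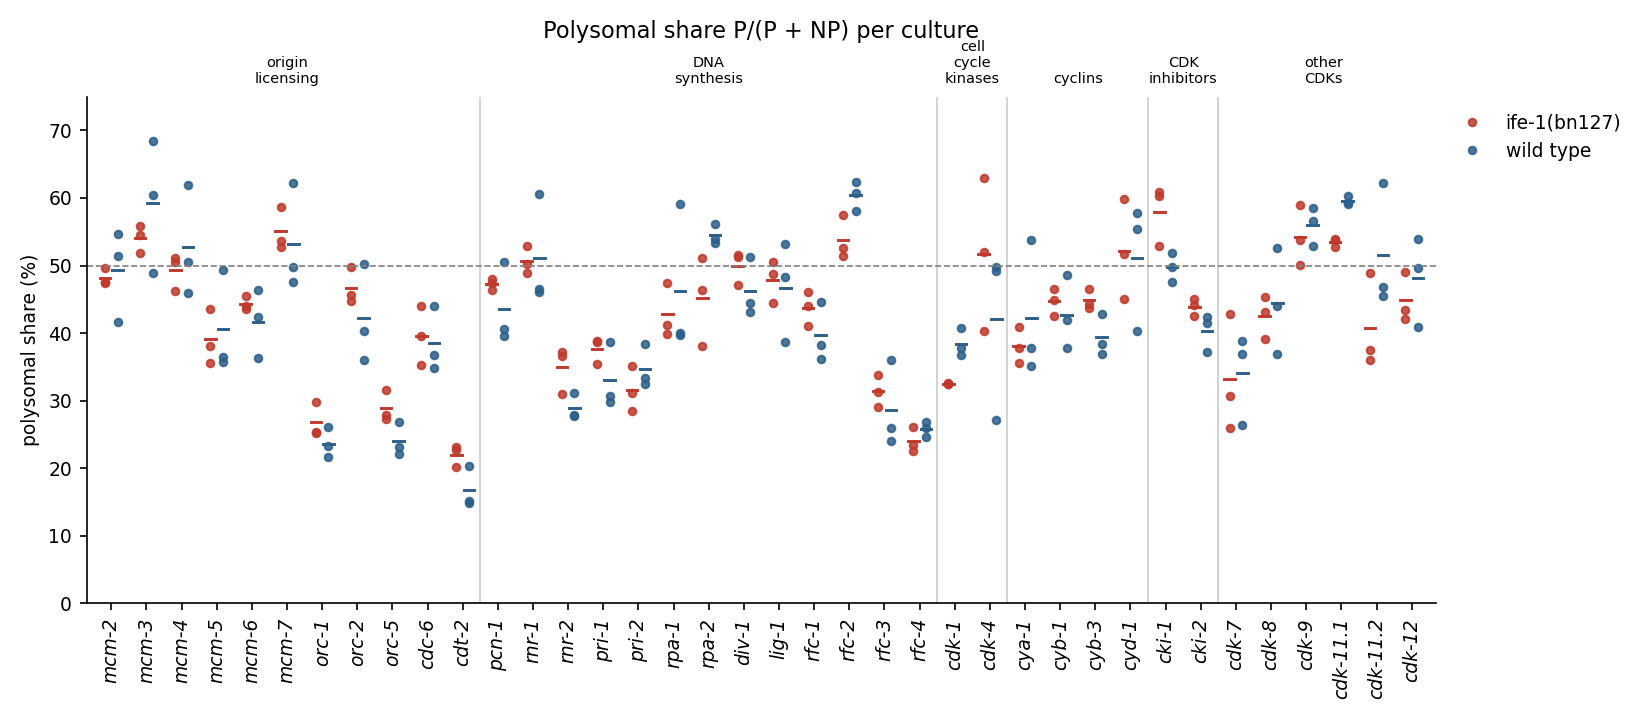
Polysomal share (vertical axis, percent of P + NP) of the 38 genes in each culture (points, 3 per genotype, short bars are means), grouped by role along the horizontal axis, with ife-1(bn127) left of wild type and a dashed line at 50%. The lowest shares are those of cdt-2, rfc-4, orc-1 and orc-5 in both genotypes, and the highest wild-type point of many genes is the culture of set 2.

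The other genes of these pathways were also called lower in P more often than higher. Of 29 further replication genes 11 were lower and 4 higher in P in ife-1(bn127), and 17 and 4 in wild type. Of 34 further cell cycle genes 20 were lower and 4 higher in ife-1(bn127), and 21 and 6 in wild type. Over all probe sets, 26.1% were lower and 22.7% higher in ife-1(bn127), and 29.3% and 26.5% in wild type. In association, 0 of 29 and 0 of 34 were called, with 4 and 2 higher and 0 and 1 lower at an unadjusted limma p under 0.05. At that unadjusted threshold, 1381 of all 13333 probe sets were higher and 1349 lower.

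By position, 11 of the 38 genes lie on chromosome III (28.9%, against 15.9% of all measured genes) and 2 on X (5.26%, against 13.7%), the latter being cdk-4 and cdk-11.2. Besides the cki pair, orc-5 and cyb-1 are direct neighbours, on chromosome IV. Their changes of combined signal were 0.48 and 0.37, and neither passed the threshold.

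The authors' deposited table gives mean folds of wild type over ife-1, the inverse direction of the values above. For the sum of both fractions, the authors' deposited table has 0.208 for cdk-11.2, 0.361 for rpa-1, 0.389 for mcm-3 and 1.85 for cki-1. For the polysomal share, the authors' deposited table has values between 0.775 for rnr-2 and 1.25 for cdk-11.2 over the 38 members.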

How the data were processed

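The authors deposited linear intensities, 1 per probe set and array, described in the labels as raw Affymetrix signal. The sources used here do not give how they were summarised or scaled. Of 22626 probe sets the authors kept 13372, by detection, and they deposited mean ratios (folds) of wild type over ife-1, per the file headers. The deposited detection calls, a score of present or not, could be tied to groups only, and 36 further per-sample columns were left unused. After removal of 39 control probe sets, 13333 were tested. The platform annotation gives 1 gene for 12616 of them, several for 459 and none for 258, and 12595 matched RefSeq's table. Values below 1 (5 in all) were set to 1, and quantile normalization was applied to the log2 signals of the 12 arrays, which removes overall differences in RNA amount. P and NP were then combined per culture.

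Tests were made in R 4.3.3 with limma 3.58.1 (lmFit and eBayes, no trend). P-values were adjusted over all probe sets by Benjamini-Hochberg, and calls were made at 0.05. Scripts were tested on simulated data. Figures used matplotlib 3.10.9 and pandas 2.3.3 in Python 3.11.15. The members, the other gene lists and the tests were chosen with earlier results of these data known. Values per culture are given, in each comparison, for up to 10 members past the threshold by size of change, or for the 5 with the smallest p in each direction where none passed; a few others are given beside them for contrast. Alternatives were other scalings, a trend in the variance, an offset of 50, brighter probe sets alone, a block for the set number, unpaired fractions, the share as outcome, all probe sets of a gene, and omission of each set or culture.

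Cultures of the 2 genotypes were paired in growth sets, per a deposited description of the method. Same-numbered cultures deviated from their genotype means with correlations of -0.032, -0.0627 and 0.0234 (association) and of -0.113, -0.0532 and 0.13 (abundance). Correlations of arrays within groups ranged from 0.916 to 0.987, and none was a duplicate.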

Additional observations from a re-analysis of the deposited data

How the results depend on the processing

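The set number as a replicate block ended the abundance calls of cdt-2, rfc-2 and cyb-3 and changed no other call of a member. It gave 21 members higher and 1 lower in combined abundance (18.7% and 17.3% of all probe sets), with a median change of 0.65. In association it gave 0 and 0. Of the alternative values of members called in combined abundance, 363 kept their call, 86 lost it and 0 changed sign. These include the median over all probe sets of a gene, which repeats the main call for a gene with 1 probe set. The median change of all measured members, called or not, was 1.06 under bacterial control scaling. There 0 members were lower, as with all probe sets of a gene. Leaving out sets or cultures gave 2 to 25 members higher and 0 to 1 lower.

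Association gave no call under any alternative, but its median was -0.61 under bacterial control scaling, which moved the median of all probe sets to -0.47. There the changes of cki-1 (-0.10), cdt-2 (-0.34), rnr-2 (-0.0292), orc-5 (-0.36) and cyb-3 (-0.13) turned sign, as did cki-1 over all its probe sets (-0.13).

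In ife-1(bn127), 0 members were higher in P under median scaling, bacterial control scaling, unpaired fractions and all probe sets of a gene, and 0 to 1 when cultures were left out; 22 were lower under median scaling. In wild type, 4 were higher on deposited signals, with quantiles within fractions and among brighter probe sets, 9 under bacterial control scaling (44.7% of all probe sets), 1 with unpaired fractions or all probe sets of a gene, and 1 to 3 when cultures were left out. Under bacterial control scaling 6 were lower (7.48% of all probe sets), the median was 0.18, and mcm-6 (0.0873), cdc-6 (0.0223), cyb-1 (0.0416) and cki-2 (0.0568) turned sign; leaving out cultures gave 9 to 22 lower. The causes were not tested. With 3 cultures per genotype, small association changes cannot be resolved: SEs ran from 0.18 to 0.45.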
